A study of Rattus norvegicus with 36 samples.

Results

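ATF4 and 8 genes that act with it or downstream of it in the integrated stress response were followed in rat liver: Atf4, Atf5, Atf3, Ddit3, Trib3, Chac1, Sesn2, Ddit4 and Nupr1. They were chosen by name, and a probe set was used only where the platform annotation names exactly 1 gene. All 9 genes were found among the 14217 genes on the array, on 12 of the 31042 probe sets tested. The livers came from 36 male Harlan Sprague Dawley rats, an outbred stock, 7 weeks old when dosing began. Each rat received corn oil by gavage on 5 consecutive days and was killed 1 day after the last dose, and 1 array was run per animal on RNA of the left lobe. Of the 6 groups of 6 animals, the vehicle group received corn oil alone, and the others received TBBPA-DBPE, a brominated flame retardant of the tetrabromobisphenol A family, in it. The lowest dose was 0.1 mg/kg and the highest 943 mg/kg, with steps of 0.94, 9.4 and 94.3 mg/kg between them. Nothing in the labels ties animals to cages, litters or array batches.

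In the integrated stress response, kinases that sense amino acid shortage, unfolded protein in the endoplasmic reticulum (ER), haem shortage or viral RNA phosphorylate the translation factor eIF2alpha. General translation then slows, while the mRNAs of ATF4 and ATF5 are translated more, so that much of the control of these regulators lies in translation, which mRNA levels do not show. ATF4 binds composite C/EBP-ATF elements together with C/EBP partners and drives genes of amino acid supply, redox balance and cell death. In liver the same genes also follow feeding, glucocorticoids and amino acid supply.

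The promoters of 8 of the 9 genes were in the RefSeq table used (rat assembly GRCr8), as the 250 bases before the start that the table gives for each gene. For 7 of the 8 that start is the end of the annotated gene, while for Atf5 it lies inside the gene, so that the window of Atf5 is a stretch within the gene. Atf3 was not matched. The core of the composite element, searched as TGATGNAA on both strands, was present in 3 of these 8 windows and in 3.40% of all 33469 windows of that length. The cAMP response element TGACGTCA, which ATF and CREB proteins bind, was in 0 of the 8 and in 1.59% of all windows. The ER stress element was in 0 of the 8 and in 0.0657% of all windows. The 3 windows with a core are printed because they belong to Chac1, Trib3 and Nupr1, and the window of Ddit4 stands beside them as a promoter without a match whose mRNA varied with theirs. Each is given 5′ to 3′ on the strand of its gene, and capitals mark the core, which lies on the opposite strand in all 3.
Chac1: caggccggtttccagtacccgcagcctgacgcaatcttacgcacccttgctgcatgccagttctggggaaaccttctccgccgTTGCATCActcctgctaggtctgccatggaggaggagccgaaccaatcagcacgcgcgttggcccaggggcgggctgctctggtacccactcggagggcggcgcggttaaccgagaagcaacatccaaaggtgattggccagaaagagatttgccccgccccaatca
Trib3: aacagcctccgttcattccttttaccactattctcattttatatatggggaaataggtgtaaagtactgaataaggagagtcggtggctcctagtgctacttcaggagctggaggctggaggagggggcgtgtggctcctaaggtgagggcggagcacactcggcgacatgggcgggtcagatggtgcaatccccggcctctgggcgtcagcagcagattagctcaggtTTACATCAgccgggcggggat
Nupr1: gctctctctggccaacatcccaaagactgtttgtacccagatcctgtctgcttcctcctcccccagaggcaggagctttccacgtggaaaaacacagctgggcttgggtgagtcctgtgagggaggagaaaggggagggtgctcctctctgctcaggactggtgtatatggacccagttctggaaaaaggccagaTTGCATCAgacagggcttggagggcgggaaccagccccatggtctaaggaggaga
Ddit4: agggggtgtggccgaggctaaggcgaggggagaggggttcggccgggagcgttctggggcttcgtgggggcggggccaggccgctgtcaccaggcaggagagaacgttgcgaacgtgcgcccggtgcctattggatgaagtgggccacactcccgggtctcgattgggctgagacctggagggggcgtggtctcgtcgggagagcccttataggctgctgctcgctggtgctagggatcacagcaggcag
The Chac1 window is chr3:126795881-126796130 on the plus strand, with the core TTGCATCA from 167 to 160 bases before the start. The Trib3 window is chr3:161275534-161275783 on the minus strand, and its core TTACATCA lies 21 to 14 bases before the start. The Nupr1 window is chr1:190645902-190646151 on the minus strand, and its core TTGCATCA lies 55 to 48 bases before the start. The Ddit4 window is chr20:28437038-28437287 on the minus strand, and 67.6% of its bases are G or C. Such a match is a stretch of letters, and no binding was measured.

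The 36 arrays were alike over all probe sets, with medians from 4.59 to 4.66 on the log2 scale and correlations between arrays from 0.989 to 0.997. All 6 hepatocyte markers measured (Alb, Apoa1, Ttr, Serpina1, Tat and Cps1) were above the array median, and their mean lay between 12.66 and 12.98 in every animal. All values below are log2 expression values, and differences are dose minus vehicle on that scale with the SE of 1 limma fit over all arrays, with p adjusted over all 31042 probe sets. Each dose was compared with the same 6 vehicle animals, so the 5 comparisons are not independent. In whole liver, fewer cells of a type and less RNA per cell cannot be told apart.

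No gene of the 9 passed an adjusted p of 0.05 at any dose, and 0% of all probe sets did. The largest differences from vehicle were those of Ddit4 at the 3 lower doses, and the most separated groups were those of Atf5 at 94.3 mg/kg. Chac1, Ddit4, Trib3 and Atf3 differed between animals of the same group far more than most genes did. At an unadjusted p of 0.05, 4 of the 9 genes passed at 0.1 mg/kg (Atf5, Ddit3, Ddit4 and Nupr1), 0 at 0.94 mg/kg, 0 at 9.4 mg/kg, 1 at 94.3 mg/kg (Atf5) and 0 at 943 mg/kg. Over all probe sets that share was 5.62% at 0.1 mg/kg, 4.16% at 0.94 mg/kg, 4.85% at 9.4 mg/kg, 6.90% at 94.3 mg/kg and 5.74% at 943 mg/kg. At the lowest dose 4 of 9 is a larger share than that, and the other doses had 0 or 1 of 9. The 9 genes were chosen with earlier results of these data known, vary together between animals and share the vehicle animals. The count is therefore a description and was not tested against that share.

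**Figure D1:**
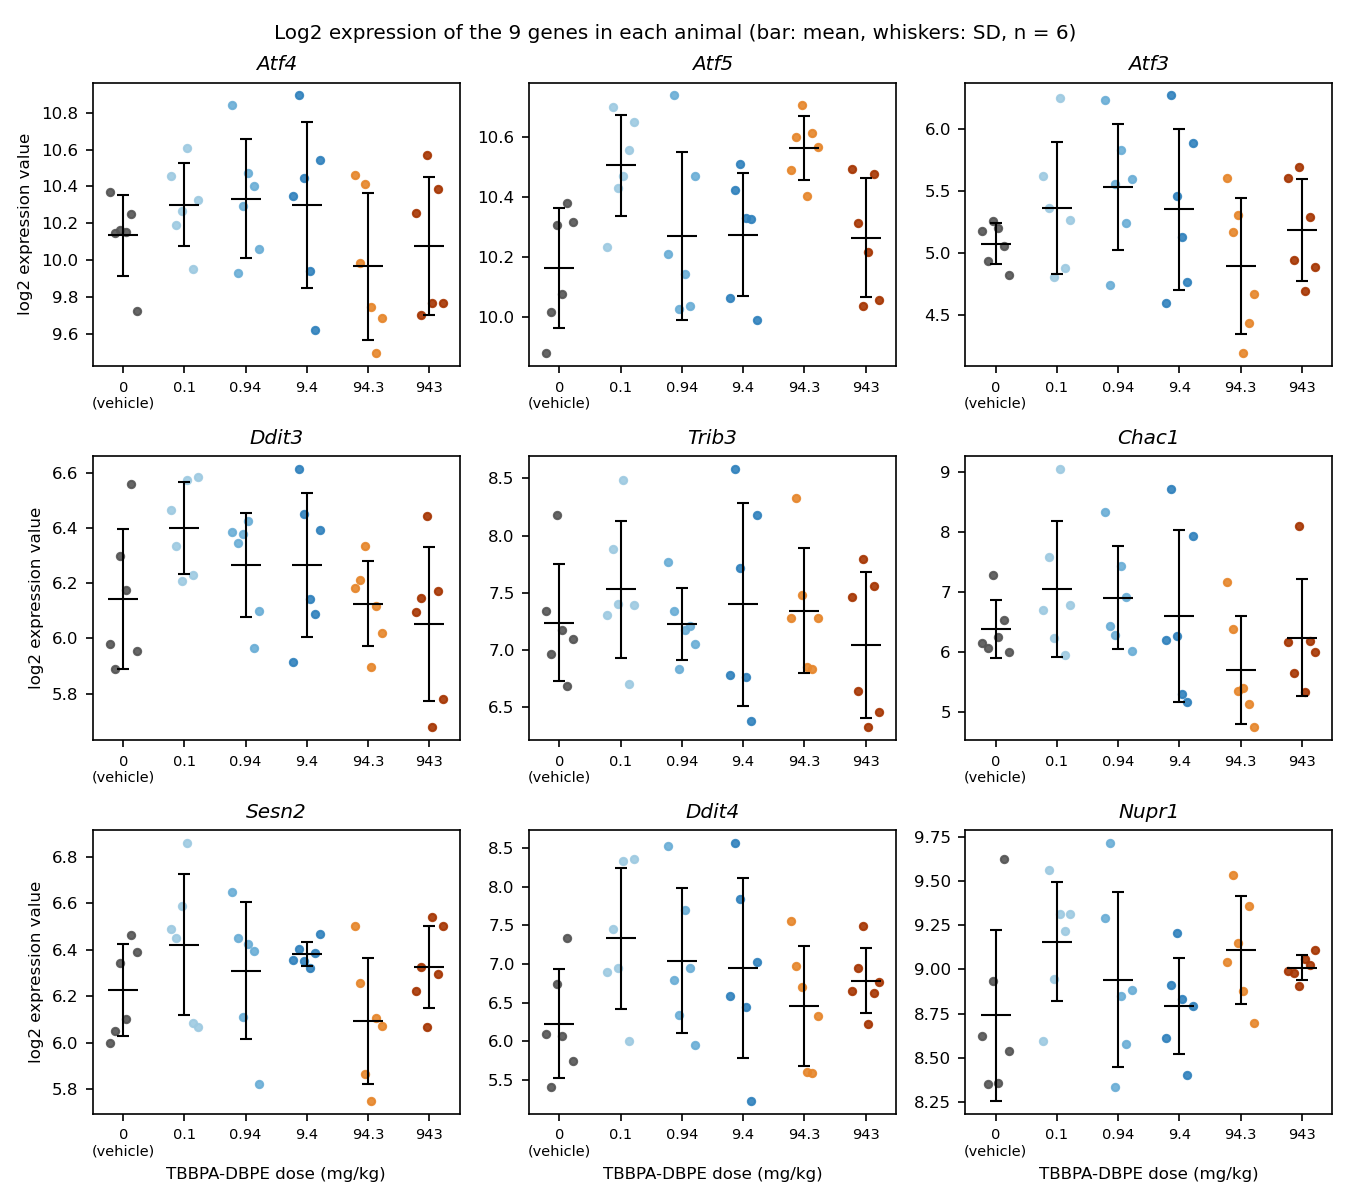
Log2 expression value of each gene (vertical axes, a scale of its own per gene) in every animal against the dose in mg/kg, with 6 animals per group, bars at the group mean and whiskers of 1 SD. The Atf5 points at 94.3 mg/kg, from 10.40 to 10.71, all lie above the vehicle points, which end at 10.38, while for the other 8 genes every dose group overlaps the vehicle group.

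Among the transcription factors, Atf4 encodes the central factor of the response. Its lowest, median and highest values in the vehicle group were 9.72, 10.16 and 10.37. They were 9.95, 10.30 and 10.61 at 0.1 mg/kg, 9.93, 10.35 and 10.84 at 0.94 mg/kg, and 9.62, 10.40 and 10.89 at 9.4 mg/kg. At the upper doses they were 9.49, 9.87 and 10.46 (94.3 mg/kg) and 9.70, 10.01 and 10.57 (943 mg/kg). The groups overlapped throughout. Each dose group had 2 or 3 animals above the vehicle range, and the 9.4, 94.3 and 943 mg/kg groups also had 1 or 2 below it. The largest difference was 0.20 ± 0.19 (SE, n = 6 against 6) at 0.94 mg/kg, and that at 94.3 mg/kg was -0.17 ± 0.19. The limma adjusted p was 0.915 to 0.999 over the 5 doses, so none of these differences passed the threshold.

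Atf5 encodes a related factor that is also under translational control and in liver is highly expressed in hepatocytes. Its lowest, median and highest values were 9.88, 10.19 and 10.38 in vehicle, 10.24, 10.51 and 10.70 at 0.1 mg/kg, and 10.03, 10.18 and 10.74 at 0.94 mg/kg. At 9.4 mg/kg they were 9.99, 10.33 and 10.51, at 94.3 mg/kg 10.40, 10.58 and 10.71, and at 943 mg/kg 10.04, 10.27 and 10.49. The 94.3 mg/kg group was thus the only dose group of any of the 9 genes that did not overlap vehicle, and at 0.1 mg/kg 5 of 6 animals lay above the vehicle range. Over all probe sets, groups did not overlap vehicle for 0.296% at 94.3 mg/kg, against 0.235% at 0.1 mg/kg, 0.206% at 0.94 mg/kg, 0.184% at 9.4 mg/kg and 0.261% at 943 mg/kg. The difference of Atf5 was 0.40 ± 0.11 (95% interval 0.18 to 0.62, 1.32-fold) at 94.3 mg/kg, with a limma adjusted p of 0.384. At 0.1 mg/kg it was 0.34 ± 0.11 with an adjusted p of 0.823, and at 0.94, 9.4 and 943 mg/kg it was 0.11, 0.11 and 0.10, each ± 0.11. The order of its group means was therefore not the order of the doses.

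Atf3 encodes a stress-induced factor that is itself an ATF4 target and mostly represses transcription. It was dim, with 33 of 36 values above the median of their own array, and its vehicle values were close together, from 4.82 to 5.26 (median 5.12, SD 0.17, n = 6). In the dose groups it spread more, with an SD of 0.53 at 0.1 mg/kg, 0.51 at 0.94 mg/kg, 0.65 at 9.4 mg/kg, 0.55 at 94.3 mg/kg and 0.41 at 943 mg/kg. The widening went both ways, since the highest values at the 3 lower doses were 6.26, 6.24 and 6.27 and the lowest at 94.3 mg/kg was 4.19. The difference was largest at 0.94 mg/kg, 0.46 ± 0.26 with a limma adjusted p of 0.999. The equality of the group SDs was not tested.

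Ddit3 encodes CHOP, the factor through which prolonged stress leads to cell death. It ranged over 5.89 to 6.56 in vehicle (median 6.08) and 6.21 to 6.58 at 0.1 mg/kg (median 6.40), and from 5.68 to 6.61 over all 36 animals. Its difference at 0.1 mg/kg was 0.26 ± 0.12 with a limma adjusted p of 0.883. All 6 animals at that dose were above the vehicle mean, but 2 of them were above the vehicle range. At 943 mg/kg the difference was -0.09 ± 0.12.

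Trib3 and Chac1 are targets of ATF4 and CHOP. Trib3 encodes a pseudokinase that binds AKT and ATF4, and its brightest probe set had a median of 7.14 in vehicle, with values from 6.68 to 8.18. Its group medians lay between 7.06 and 7.40 at the 5 doses, and its differences between -0.20 and 0.29, each ± 0.32. The other 2 probe sets of Trib3 gave 0.34 ± 0.39 and 0.25 ± 0.45 at 0.1 mg/kg, near the 0.29 of the first. At 943 mg/kg the 3 gave -0.20, 0.08 and -0.17, so they did not share a sign there.

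Chac1 encodes a cytosolic enzyme that breaks down glutathione. Its lowest, median and highest values were 6.00, 6.19 and 7.29 in vehicle, 5.94, 6.75 and 9.05 at 0.1 mg/kg and 6.02, 6.67 and 8.33 at 0.94 mg/kg. They were 5.16, 6.23 and 8.71 at 9.4 mg/kg, 4.75, 5.38 and 7.16 at 94.3 mg/kg and 5.34, 6.08 and 8.11 at 943 mg/kg. In each dose group, as in vehicle, the highest animal was farther from the median than the lowest. At 94.3 mg/kg 4 of 6 animals lay below every vehicle animal. The differences were 0.67, 0.52, 0.22, -0.68 and -0.14 from the lowest to the highest dose, each ± 0.54 (SE), and the limma adjusted p at 94.3 mg/kg was 0.858. The sign of the difference at 9.4 mg/kg rested on 2 animals, since it was -0.21 without replicate 2 and -0.05 without replicate 6.

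Sesn2 and Ddit4 restrain the growth kinase complex mTORC1. Sesn2 encodes a leucine sensor, and its brighter probe set ranged from 6.00 to 6.46 in vehicle (median 6.22). Its medians at the 5 doses lay between 6.09 and 6.47, and its differences between -0.13 and 0.20, each ± 0.13. The other probe set of Sesn2 was below the median of its array in all 36 animals, and its differences lay between -0.08 and -0.02. At 9.4 mg/kg the Sesn2 values were packed between 6.32 and 6.47 (SD 0.05, n = 6), where the other groups had an SD of 0.18 to 0.30.

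Ddit4 encodes REDD1, which acts through the TSC complex and is also induced by glucocorticoids and hypoxia. Its lowest, median and highest values were 5.40, 6.08 and 7.33 in vehicle, 6.01, 7.20 and 8.35 at 0.1 mg/kg and 5.95, 6.87 and 8.53 at 0.94 mg/kg. They were 5.23, 6.80 and 8.56 at 9.4 mg/kg, 5.59, 6.51 and 7.56 at 94.3 mg/kg and 6.23, 6.71 and 7.49 at 943 mg/kg. Every dose group had a higher median than vehicle, and every dose group overlapped it. The difference at 0.1 mg/kg was 1.10 ± 0.45 (2.15-fold, 95% interval 0.18 to 2.02, 3 of 6 animals above the vehicle range), with a limma adjusted p of 0.855. At the higher doses it was 0.81, 0.72, 0.23 and 0.56, each ± 0.45.

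Nupr1 encodes a small chromatin-associated stress protein. Its lowest, median and highest values were 8.35, 8.58 and 9.63 in vehicle, where replicate 5 stood above the others, and 8.60, 9.27 and 9.56 at 0.1 mg/kg. At 943 mg/kg all 6 animals lay between 8.90 and 9.11, an SD of 0.07 against 0.48 in vehicle. All of them were above the vehicle mean of 8.74 and within the vehicle range. The differences were 0.42, 0.20, 0.05, 0.37 and 0.27 from the lowest to the highest dose, each ± 0.19, and the limma adjusted p at 0.1 mg/kg was 0.883.

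**Figure D2:**
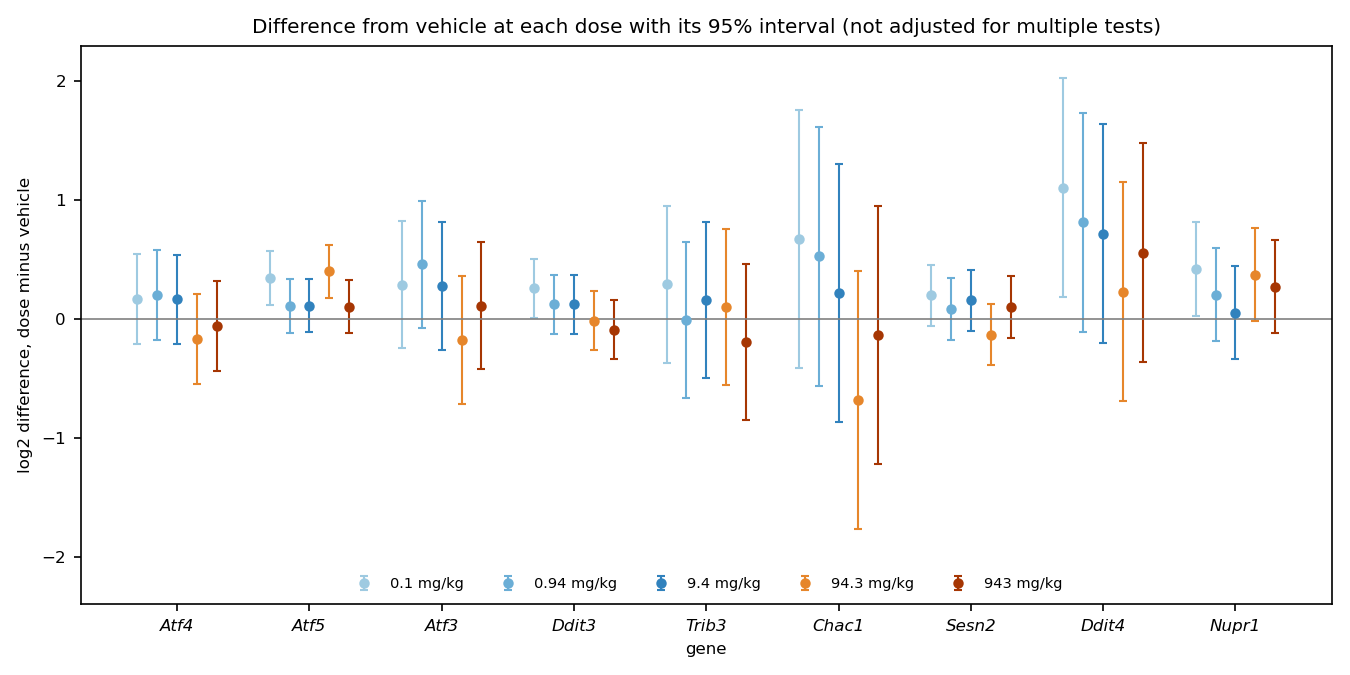
Log2 difference of each gene between a dose and vehicle (vertical axis) with its 95% interval from limma, n = 6 against 6 animals, colours for the 5 doses in mg/kg. The intervals of Atf5, Ddit3, Ddit4 and Nupr1 at 0.1 mg/kg and of Atf5 at 94.3 mg/kg lie above 0 before adjustment, and those of Chac1 are the widest.

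Counted by sign alone, 9 of the 9 genes were higher than vehicle at 0.1 mg/kg, 8 at 0.94 mg/kg, 9 at 9.4 mg/kg, 4 at 94.3 mg/kg and 5 at 943 mg/kg. Their median difference was 0.29, 0.20, 0.16, -0.02 and 0.10 in that order, beside 0.00136 to 0.00534 over all 14217 genes, of which between 50.6% and 52.5% were higher than vehicle. These signs share the vehicle animals, and the genes vary together between animals. Averaged over the 5 doses, Atf5 differed from vehicle by 0.21 ± 0.09 (limma adjusted p 0.853) and was the 1 gene of the 9 with an unadjusted p under 0.05, against 5.54% of all probe sets. Ddit4 differed by 0.68 ± 0.35 in that average. Between 943 and 94.3 mg/kg, groups that share no animals, Atf5 was again the 1 gene under an unadjusted 0.05, against 5.70% of all probe sets, at -0.30 ± 0.11 with an adjusted p of 0.704. In the F test over the 5 doses Atf5 alone was under an unadjusted 0.05 (limma adjusted p 0.886), against 5.35%. In the trend over dose rank 0 of the 9 genes were, against 5.68%.

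None of the 11 pathway lists had a gene past an adjusted p of 0.05 in either direction at any dose. Of the ATF4 targets in amino acid synthesis and transport, 17 of 18 were measured. At 0.1 mg/kg 7 of them were under an unadjusted 0.05 and at 94.3 mg/kg 9, with 0 at the other doses. Over all probe sets the share was 5.62% at 0.1 mg/kg and 6.90% at 94.3 mg/kg. The lists were chosen with earlier results of these data known and the doses share the vehicle animals, so these counts are a description. The median difference of the 17 genes was 0.22 at 0.1 mg/kg, 0.08 at 0.94 mg/kg, 0.06 at 9.4 mg/kg, 0.19 at 94.3 mg/kg and 0.03 at 943 mg/kg. Psat1 and Psph, of serine synthesis, differed by 1.09 ± 0.25 and 0.58 ± 0.13 at 94.3 mg/kg (limma adjusted p 0.384 and 0.331). Slc7a11 and Slc3a2, the subunits of the cystine importer, differed by 1.03 ± 0.25 and 0.44 ± 0.10 there (limma adjusted p 0.384 and 0.357). Atf5 (0.34 and 0.40), Nupr1 (0.42 and 0.37) and the median of the amino acid genes thus had their 2 largest differences at the same 2 doses. At 94.3 mg/kg the differences in the same animals were -0.17 for Atf4, -0.18 for Atf3, -0.68 for Chac1, -0.02 for Ddit3, 0.10 for Trib3 and 0.23 for Ddit4, none of them past the test.

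Of the 18 ATF4 targets outside amino acid metabolism, 16 were measured, with medians from -0.01 to 0.12. At 94.3 mg/kg 6 of them were under an unadjusted 0.05, beside 6.90% of all probe sets, and at the other doses 0 or 1 were. The 4 with the smallest p all had it at 94.3 mg/kg. They were Yars1 (0.39 ± 0.09, limma adjusted p 0.357), Eif4ebp1 (0.28 ± 0.08), Sars1 (0.31 ± 0.10) and Sqstm1 (0.15 ± 0.06). The 10 eIF2alpha kinases, subunits and phosphatase subunits had medians from -0.04 to 0.05, a smallest adjusted p of 0.792 and 0 genes under an unadjusted 0.05. Ppp1r15a, the inducible phosphatase subunit that ends the response, differed by 0.19 ± 0.10 at 0.94 mg/kg. The 11 C/EBP and AP-1 partners of ATF4 had medians from -0.01 to 0.02 and also 0 genes under an unadjusted 0.05.

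Of the other stress programmes, each had 0 to 3 genes under an unadjusted 0.05 at a dose, beside 4.16% to 6.90% of all probe sets. Genes of the unfolded protein response of the ER (17 of 18 measured) had medians from -0.08 to 0.02, and its chaperone Hspa5 differed by -0.13 ± 0.07 at 943 mg/kg. Those of the mitochondrial unfolded protein response (8 of 8) had medians from -0.03 to 0.06, p53 targets (10 of 12) from -0.01 to 0.03, and mTORC1 regulators (13 of 13) from -0.05 to -0.01. Tsc2, through which Ddit4 acts, differed by -0.23 ± 0.07 at 0.1 mg/kg (limma adjusted p 0.823). Glucocorticoid-induced genes (9 of 11) had medians from -0.08 to 0.02, fasting and insulin-responsive genes (7 of 10) from -0.19 to -0.02, and immediate early genes (9 of 10) from -0.09 to 0.13.

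The 9 genes differed mainly between animals of the same group. The residual SD within groups had a median of 0.145 over all probe sets. That of Chac1 was 1.01, larger than in 99.9% of probe sets, followed by Ddit4 (0.851), Trib3 (0.606), Atf3 (0.493), Nupr1 (0.359) and Atf4 (0.344). Sesn2 (0.233), Ddit3 (0.223) and Atf5 (0.200) varied least among the 9. From the lowest to the highest of the 36 animals Chac1 spanned 19.7-fold, Ddit4 10.1-fold, Trib3 4.76-fold, Atf3 4.24-fold and Atf4 2.64-fold. Within the 9.4 mg/kg group alone Chac1 spanned 11.7-fold.

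Whether these genes vary together was tested on the deviations of the 36 animals from their group means, which removes differences between the group means. Of the 36 pairs, 20 correlated at an adjusted p of 0.05 by Pearson's r and 18 by Spearman's rho. Permutations were made within the groups, with adjustment over the 36 pairs. As a background, the share of all genes with an r above 0.5 ran from 0.345% for Sesn2 to 4.17% for Trib3. It was 3.15% for Atf4. Pairs of genes in general were not put through the permutation test, so the count of 20 has no matching share. Atf4 correlated with Atf3 at r = 0.81 (rho 0.81, permutation p 1e-05, the smallest that 100000 permutations can give, adjusted 5.14e-05). Its r with Chac1 was 0.76, with Ddit4 0.73, with Trib3 0.68 and with Ddit3 0.58, where the adjusted permutation p was 0.00211. Chac1 correlated with Trib3 at 0.80, with Atf3 at 0.80 and with Ddit4 at 0.78.

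**Figure D3:**
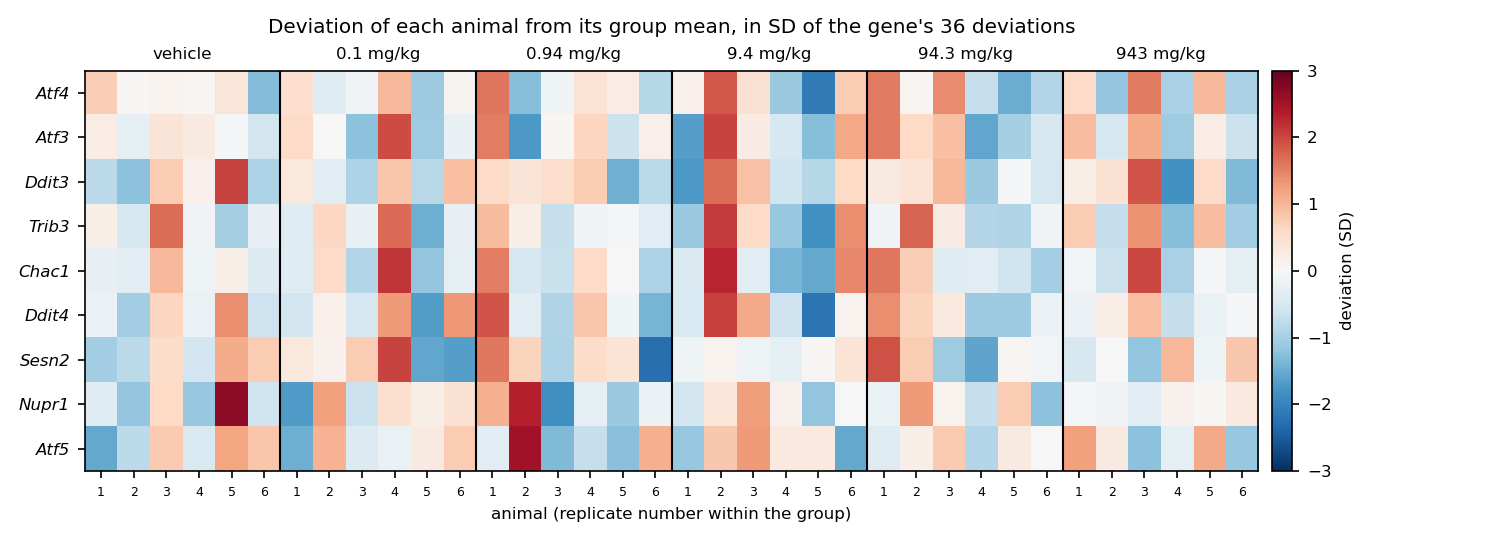
Deviation of each of the 36 animals (columns, numbered within their group) from its group mean for each gene (rows), in units of the SD of that gene's 36 deviations. Red columns recur over the rows from Atf4 to Ddit4 in the same animals, such as replicate 2 at 9.4 mg/kg, while Atf5 and Nupr1 in the bottom rows are highest in others.

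Atf4, Atf3, Ddit3, Trib3, Chac1 and Ddit4 formed a set in which all 15 pairs passed by both measures, with r from 0.58 to 0.81 and a median of 0.70. This set of 6 was picked after the correlations were seen, so its counts are a description. Leaving out the 2 animals farthest from the median of the first gene of a pair gave r of at least 0.52 in these 15 pairs, and leaving out any 1 animal gave at least 0.53. Of the other 21 pairs 5 passed by Pearson's r and 3 by Spearman's rho. Atf5 correlated with Nupr1 at r = 0.63 (rho 0.58, adjusted permutation p 0.000526 and 0.00127), but with Atf4 at -0.20 (adjusted permutation p 0.375) and with Atf3 at -0.07. Nupr1 also correlated with Ddit4 (r = 0.47, adjusted permutation p 0.0191) and Ddit3 (0.42, 0.0232). The r of Sesn2 passed with Ddit4 (0.44) and Chac1 (0.41), but not the rho of either pair.

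**Figure D4:**
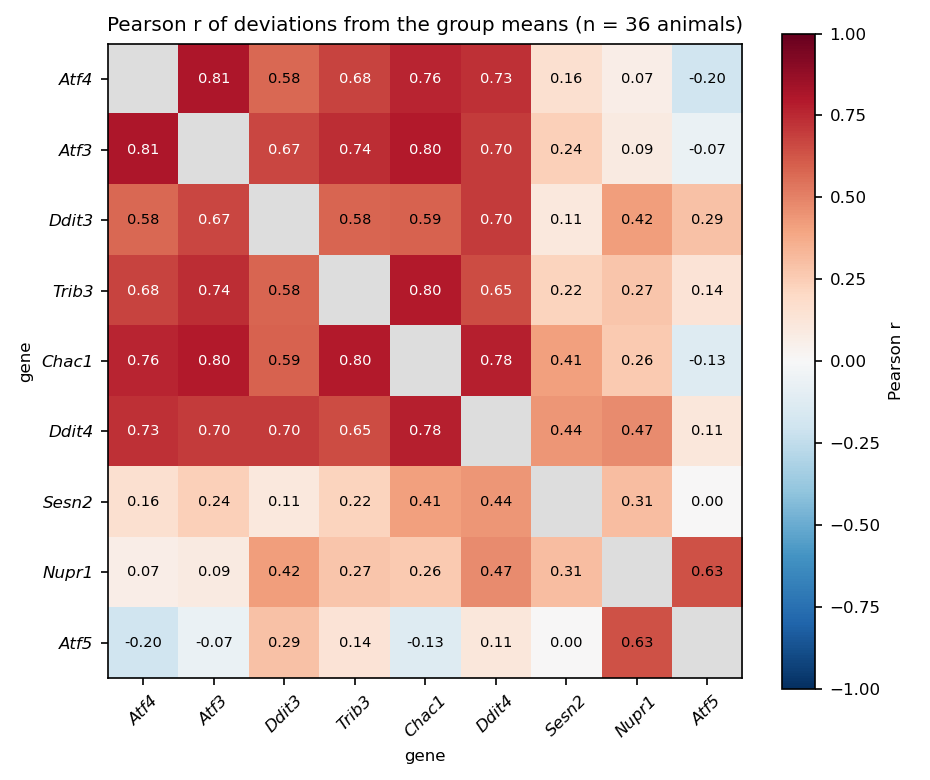
Pearson r of the deviations from the group means for all 36 pairs of the 9 genes over 36 animals, with the colour scale from -1 to 1 and the r printed in each cell. The block of 6 genes from Atf4 to Ddit4 holds r of 0.58 to 0.81, and outside it the highest is Atf5 with Nupr1 at 0.63.

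The pattern was not that of a single dose group, although 6 animals per group make each r within a group a rough value. The r of Atf4 with Atf3 was positive in 6 of 6 groups, from 0.72 in vehicle to 0.91 at 943 mg/kg. That of Atf4 with Chac1 was 0.27 in vehicle and 0.66 to 0.91 in the dose groups, and that of Chac1 with Ddit4 ranged from 0.67 in vehicle to 0.99 at 0.94 mg/kg. Among vehicle animals Atf4 and Trib3 had an r of 0.08 and Ddit3 and Trib3 of -0.01. Atf5 and Nupr1 correlated at 0.46 to 0.93 in 5 groups and at -0.02 at 943 mg/kg, where Nupr1 hardly varied. Sesn2 was opposite to all 6 genes of the set at 943 mg/kg, with r from -0.96 to -0.78. In vehicle its r was also below 0 with Atf4 (-0.44), Atf3 (-0.23) and Trib3 (-0.03), and in the other 4 groups it was above 0 with all 6. Nupr1 was likewise opposite to these 6 genes at 943 mg/kg, with r from -0.89 to -0.63, and had an r of 0.91 with Sesn2 there. Whether r differed between groups was not tested.

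The animals that carried the pattern were spread over the groups. Replicate 2 at 9.4 mg/kg was among the 6 highest deviations of all 36 animals for 6 of the 6 genes of the set, and replicate 3 at 943 mg/kg for 5 of 6. Replicate 4 at 0.1 mg/kg, replicate 1 at 0.94 mg/kg and replicate 1 at 94.3 mg/kg were for 4 of 6. Replicate 5 at 9.4 mg/kg was among the 6 lowest for 5 of 6. Each dose group thus held 1 animal that was among the 6 highest for at least 4 of the 6 genes, while no vehicle animal was for more than 2. Vehicle replicate 3 was still above its group mean for all 6 genes, with a mean deviation of 0.45. The same held for replicate 6 at 9.4 mg/kg, with 0.52. The 6 genes were picked from these same deviations, and whether dosed and vehicle animals differed in this was not tested. In replicate 2 at 9.4 mg/kg Atf4 was 10.89, Chac1 8.71 and Ddit4 8.56, each the highest of its group.

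**Figure D5:**
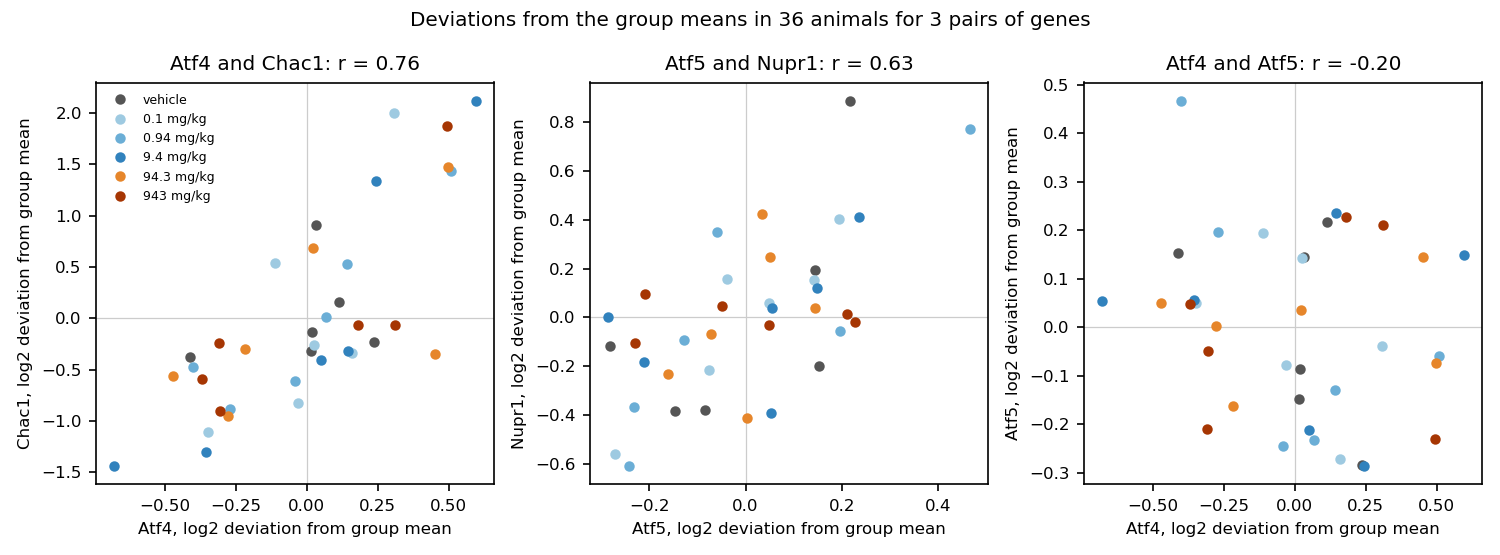
Log2 deviation from the group mean of 36 animals, coloured by dose group, for Chac1 against Atf4 (r = 0.76), Nupr1 against Atf5 (r = 0.63) and Atf5 against Atf4 (r = -0.20). The first cloud slopes upward with animals of all 6 groups along it. The second slopes upward as well, except at 943 mg/kg, where Nupr1 hardly varied and r was -0.02. The third does not slope upward.

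The genes most like each of the 9 were ranked by r over the same 36 deviations, a description in which all genes share the arrays. Atf4 was most like Cebpb (r = 0.87), which encodes a C/EBP partner of ATF4, Slc38a2 (0.86), an amino acid transporter gene and known ATF4 target, and Mad2l1bp (0.84). Chac1 was most like Slc38a2 (0.87), another probe set of Trib3 (0.84) and Mob4 (0.83). Ddit4 was most like G0s2 (0.82), an inhibitor of triglyceride lipolysis, Inhbe (0.81), a hepatokine gene, and Fgf21 (0.79), a hormone of fasting and ATF4 target. Atf3 was most like Mid1ip1 (0.86), G0s2 (0.85) and Traf4 (0.84), and Ddit3 like Ifrd1 (0.79), Med17 (0.77) and G0s2 (0.72). Trib3 was most like Ajuba (0.88), Akap8l (0.86) and Pawr (0.84).

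Atf5 and Nupr1 had other neighbours. Atf5 was most like Eef2 (r = 0.77), the translation elongation factor, Hdc (0.75) and the ribosomal protein gene Rpl19 (0.69). Nupr1 was most like Phgdh (0.79), the first enzyme of serine synthesis, Esm1 (0.76) and C8g (0.75), and Sesn2 like Msantd2 (0.66), Rpa1 (0.64) and Tmcc3 (0.63). Among the 14216 other genes ranked by likeness to Atf4, Atf3 took place 16 and Atf5 place 11186. Nupr1 took place 17 for Atf5, and Atf5 took place 26 for Nupr1. Ddit4 took place 6 for Ddit3, and Atf3 took place 7 for Chac1.

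The amino acid genes were split in their likeness, since Slc38a2 was among the genes most like Atf4 and Chac1. Asns, the asparagine synthetase gene, had an r of 0.70 with Nupr1 and 0.62 with Atf5 but -0.30 with Atf4, and Psat1 had 0.69, 0.66 and -0.20. Over the 17 measured genes of that list the median r was 0.28 with Nupr1 (14 of 17 positive), 0.23 with Atf5 (13 of 17) and -0.13 with Atf4 (4 of 17), beside 0.01, 0.01 and -0.02 over all genes. Atf4 had its highest list medians with its C/EBP and AP-1 partners (0.40) and glucocorticoid-induced genes (0.37). Ddit3 (0.37), Ddit4 (0.34), Atf3 (0.34), Chac1 (0.33) and Trib3 (0.25) had glucocorticoid-induced genes as their highest list. That list split in sign, with 6 of 9 genes positive for Atf4, Ddit3 and Trib3 and 5 of 9 for Ddit4, Atf3 and Chac1. The C/EBP and AP-1 partners came next for Ddit4 (0.32), Atf3 (0.31), Ddit3 (0.23), Chac1 (0.21) and Trib3 (0.20). Of those partners 8 of 11 were positive for Ddit4 and Trib3, and 9 of 11 for Atf3, Ddit3 and Chac1. These differences between lists and genes were not tested. With genes of the unfolded protein response of the ER the medians were -0.27 to 0.12 over the 9 genes. Among ER stress genes looked at singly, Herpud1 had r of 0.44 to 0.62 with the 6 genes of the set. Outside the set it had 0.59 with Nupr1, 0.28 with Sesn2 and 0.24 with Atf5. Hspa5 had -0.17 to 0.05 with the 6 genes of the set and Dnajb9 -0.27 to 0.07.

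Markers of other liver cells were followed beside these values. The mean of the 5 measured endothelial markers of 6 listed (Pecam1, Kdr, Stab2, Lyve1 and Ptprb) ranged over 8.27 to 8.42 in vehicle and 8.09 to 8.29 at 94.3 mg/kg, and its deviations had an r of -0.52 with Atf3, -0.50 with Ddit4, -0.42 with Atf4 and 0.21 with Atf5. The mean of the 6 hepatocyte markers, of which Tat is also glucocorticoid-induced, had an r of 0.58 with Trib3, 0.57 with Ddit4, 0.52 with Chac1 and 0.43 with Atf4. Taken singly, the hepatocyte markers had a median r of 0.08 with Trib3, 0.13 with Ddit4, 0.13 with Chac1 and 0.12 with Atf4. The endothelial markers taken singly had a median r of -0.15 with Atf3, -0.27 with Ddit4, -0.12 with Atf4 and 0.11 with Atf5. The part of either list in the co-variation was not tested. The 5 measured Kupffer cell and macrophage markers of 7 ranged from 6.93 to 7.88 over all animals and had an r of -0.37 with Nupr1 and -0.29 with Atf4. The mean of 4 neutrophil markers of 5 reached 5.87 in 1 animal at 9.4 mg/kg and was at most 4.93 in the other groups, with an r of -0.36 with Atf3. Stellate cell and fibroblast markers (6 of 6) had an r of 0.37 with Nupr1, and erythroid markers (2 of 4) of 0.27 with Sesn2. The 3 measured lymphocyte markers of 5 had an r of -0.38 with Ddit3 and were below the array median in every group, and the 3 cholangiocyte markers of 4 had r of -0.22 to 0.09. None of the genes on these 8 marker lists passed at any dose, and their smallest limma adjusted p was 0.384, for Ptprb at 94.3 mg/kg. Per list and dose 0 or 1 was under an unadjusted 0.05, beside 4.16% to 6.90% of all probe sets.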

How the data were processed

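Each of 36 rat livers was run on its own Affymetrix array. The deposited table holds a log2 value for every probe set and array, computed by the authors with RMA in affy according to the submitters' processing notes, with versions not given in the sources used here. RMA quantile-normalizes arrays, so a shift common to all genes cannot be seen. Here 57 control probe sets were left out and 31042 tested without a filter. The platform table gives 1 gene for 20826 of them, several for 436 and none for 9780, and 20758 symbols were matched through Entrez identifiers with 0 updated.

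A gene is represented by its probe set with the highest mean. The tests come from limma 3.58.1 under R 4.3.3, which estimated the 6 group means from all arrays together with lmFit and moderated the variances with eBayes. They are two-sided, with Benjamini-Hochberg adjustment within each comparison and a threshold of 0.05. The authors' R/maanova was not rerun. Pairs were correlated on deviations from group means (Python 3.11.15, numpy 2.4.6, scipy 1.17.1), with 100000 two-sided permutations within groups. Both procedures were tested on simulated data. Precision is limited by there being 6 animals a group.

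The 9 genes, the 11 pathway lists and the 8 marker lists were chosen with earlier results of these data known. Of a pathway list up to 4 genes with the smallest p at a dose could be named, and for each of the 9 genes the 3 most alike. Mentions of Asns, Phgdh, Tat, Herpud1, Hspa5 and Dnajb9 beside the correlations were added. Alternatives were other filters, variance models, array weights, normalizations, probe set rules, dose scores, the replicate number as a block and leaving out animals. Leaving out each animal in the correlations was added after seeing the data. Over all probe sets, the deviations of same-numbered animals of different groups had a median r of 0.00264 (range -0.266 to 0.292). For other pairs of animals in different groups it was -0.00942 (-0.347 to 0.313). The numbers were therefore not treated as pairs in the main fit. A pairing that touches few genes would not show in these values and was not tested.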

Additional observations from a re-analysis of the deposited data

Results flagged for a closer look

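Among 54 groups of 6 animals (9 genes in 6 dose groups), 2 had an animal whose distance from the nearest other, as a share of the group's range, exceeded Dixon's 95% critical value, where chance flags about 1 in 20 groups. The lowest Atf4 value in vehicle, 9.72 in replicate 6, lay below the next at 10.15, a gap of 0.656 of the range. The highest Chac1 value at 943 mg/kg, 8.11 in replicate 3, lay above the next at 6.18, a gap of 0.697 of the range. That second animal was also among the 6 highest deviations for 5 of the 6 genes that varied together.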

How the results depend on the processing

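The count of probe sets past the adjusted threshold was 0 in all 9 comparisons, and stayed 0 with the replicate block and with other filters, variance models, array weights, probe set rules and centring. It changed only as follows. The trend gave 1 probe set after quantile normalization again. Leaving out 1 animal gave 0 to 1 for the trend (1 without vehicle replicate 4 or 9.4 mg/kg replicate 3) and 0 to 1 at 9.4 mg/kg (1 without its replicate 3). Without replicate 1 of the 94.3 mg/kg group it gave 11 at 94.3 mg/kg and 18 between 943 and 94.3 mg/kg, against 0 without any other animal. None of the probe sets that passed at 9.4 or 94.3 mg/kg against vehicle was one of the 9 genes. Their smallest limma adjusted p against vehicle was 0.251 over the settings in which it was kept. For the trend and for 943 against 94.3 mg/kg, the p of the 9 genes was not kept in these settings. Whether one of them was among the probe sets that passed there is therefore not known. The cause of these changes was not tested.

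Of the 45 differences of the 9 genes from vehicle, 37 kept their sign in every setting. Leaving out 1 animal moved Trib3 between -0.12 and 0.18 at 0.94 mg/kg, between -0.0741 and 0.37 at 9.4 mg/kg and between -0.0937 and 0.29 at 94.3 mg/kg. It moved Chac1 between -0.21 and 0.50 at 9.4 mg/kg and between -0.51 and 0.0427 at 943 mg/kg, and Nupr1 between -0.0301 and 0.23 at 9.4 mg/kg. Ddit3 moved between -0.0670 and 0.0669 at 94.3 mg/kg and Atf4 between -0.16 and 0.0146 at 943 mg/kg. The mean of its 3 probe sets put Trib3 at 0.0517 at 0.94 mg/kg. For Chac1 at 0.1 mg/kg, leaving out replicate 4 of that group gave 0.27 in place of 0.67.

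Of the 36 pairs of genes, 20 correlated with the replicate block and after array centring, 21 without the 943 mg/kg group and 19 with the mean of all probe sets. The r of Atf5 with Atf3 became 0.0215 with the replicate block, and that of Atf5 with Sesn2 became -0.00993 after centring. Trib3 with Sesn2 passed without the 943 mg/kg group (0.40), and Chac1 with Sesn2 did not pass with the mean of the probe sets (0.30). With 6 animals a group, differences smaller than about the intervals given could not be told from 0.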
